A study of Mus musculus with 16 samples.

Results

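Clustered histone genes are the genes for the core histones H2A, H2B, H3 and H4 and the linker histone H1 that lie side by side in the mouse Hist1 cluster on chromosome 13, the Hist2 cluster on chromosome 3, the Hist3 cluster on chromosome 11 and at the Hist4 locus on chromosome 6. They were measured in subchondral bone, the bone plate under the joint cartilage, on 16 one-colour Agilent arrays. Members were all genes named Hist1h to Hist4h in the array's own annotation, each represented by its brightest probe, if that probe was well above background on at least 4 arrays. Of 56 such gene names, 54 were measured, among 28276 genes that passed the same filter. They comprise 6 H1, 17 H2A, 14 H2B, 8 H3 and 9 H4 genes, 41 of them in Hist1, 9 in Hist2, 3 in Hist3 and 1 in Hist4. Clusters were taken from the names: the probe of Hist1h2al starts at position 51295494 of chromosome 13 on assembly mm9, far from the other Hist1 probes, which start between 21814057 and 24026659. All 54 matched a current mouse gene by the RefSeq accession of the probe or by a synonym, among them the pseudogenes Hist3h2bb-ps and Hist1h2al.

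Every mouse was a male wild-type C57BL6 animal operated at 10 to 12 weeks of age on both knees. The 4 groups of 4 arrays were joints 6 weeks after destabilization of the medial meniscus (DMM), 6 weeks after sham surgery, 1 week after DMM and 1 week after sham surgery. DMM cuts the ligament that anchors the medial meniscus and is a model of post-traumatic osteoarthritis; the sham operation exposed this ligament and left it whole. Each array held RNA of 1 joint of 1 mouse, laser-dissected from the medial tibial plateau, so it is a mixture of bone and any adjoining cells, and sham-operated knees served as controls with no unoperated knee among these groups. In such a mixture, fewer cells of a type and less RNA per cell cannot be told apart.

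Histone proteins package DNA, and a cell must make a new set each time it copies its genome. The clustered genes are therefore read mainly in S phase, and their mRNAs differ from other mRNAs in that most carry no poly(A) tail but end in a short conserved stem-loop that the protein SLBP binds. In bone and marrow such transcripts mark dividing precursors, while non-dividing cells rely more on replacement variants such as H3.3, encoded outside the clusters, and some clustered genes can also give polyadenylated transcripts.

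The probes are 60 bases long, and some of them hold letters that belong to a transcript end. The following probe ends, on assembly mm9, are 6 of the 10 that reach the stem-loop, marked in capitals whole or as far as the probe extends. They are shown because they include every spelling of the whole element found and genes of 4 histone types, with differences between 6 weeks and 1 week from 0.54 (Hist1h3g) to 1.19 (Hist3h2ba).
Hist3h2ba, chr11:58762834-58762863 plus strand: agcgcccccaacccaaaGGCTCTTTTCAGA
Hist2h2bb, chr3:96074086-96074115 plus strand: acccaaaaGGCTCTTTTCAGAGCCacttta
Hist1h3i, chr13:21874784-21874813 minus strand: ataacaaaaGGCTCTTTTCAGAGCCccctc
Hist1h4m, chr13:21903990-21904019 plus strand: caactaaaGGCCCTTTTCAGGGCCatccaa
Hist1h3g, chr13:23627749-23627778 plus strand: cactttaaaGGCTCTTCTTAGAGCCaccca
Hist1h1c, chr13:23831360-23831389 plus strand: gcctcccctaacaatccaaaaGGCTCTTTT
The whole element, a stem of 6 bases on each side of a loop of 4, was in 6 probes, and 4 more probes ended within it. Hist1h4m and Hist1h3g carried it with other letters than the rest of those shown. A few probes contain a polyadenylation hexamer and no stem-loop, as in the examples here with the hexamer in capitals, and most probes hold neither element.
Hist2h2be, chr3:96027578-96027607 plus strand: gatcgAATAAAtccattcactgcatgtgca
Hist1h2be, chr13:23675611-23675640 minus strand: gtactgttcattATTAAAgcattcctgatt
The last set cannot separate its genes. Of the 54 probes, 17 shared an unbroken run of at least 20 bases with the probe of another member. In 6 of these, which reach the stem-loop, the run was 21 to 23 bases long. In 9 H2A probes that do not reach it the run was 29 to 45 bases long, marked in capitals for 3 genes.
Hist2h2ac, chr3:96024378-96024437 minus strand: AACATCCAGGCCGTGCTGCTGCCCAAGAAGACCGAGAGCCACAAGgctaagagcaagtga
Hist1h2aa, chr13:24026659-24026718 plus strand: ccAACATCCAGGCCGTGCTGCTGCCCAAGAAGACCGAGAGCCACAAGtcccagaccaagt
Hist1h2ah, chr13:22127035-22127094 minus strand: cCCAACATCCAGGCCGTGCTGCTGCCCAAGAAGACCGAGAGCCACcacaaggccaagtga
Hist2h2ac and Hist1h2aa shared 45 bases, and Hist1h2ah and Hist1h2aa shared 44, so the signals of these probes may come from any of the copies. The array annotation also placed the probes of Hist1h2ai, Hist1h2an and Hist1h2ao within 111 bases of each other on chromosome 13.

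Values below are log2 signals minus the 75th percentile of the same array, called levels, and differences are between group means of levels. Of the 54 members, 50 were well above background on all 16 arrays. The 4 dimmest were above it on 15 arrays (Hist1h2ae), 14 (Hist1h2ac), 9 (Hist1h2al) and 7 (Hist2h2aa1), and Hist1h2ad, above it on 2 arrays, stayed outside the filter. Hist2h3c1 was left out because its only probe was marked as an outlier on array DMM_6wk replicate 2. The 75th percentile signal ran from 328.8 to 873.0 between arrays, 65.2% to 79.5% of probes were above background, 0 spots were saturated and 16 arrays limit the precision of every value. Array sham_6wk replicate 2 stood apart over all genes, at 176.6 on the first principal component where the other 15 lay between -69.7 and 71.9. The arrays lay on 2 slides, each with 2 arrays of each group, and within-slide values are given where they differ.

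The members varied together from array to array, whichever their group. Each gene was centred on its mean over the 16 arrays, and the median over the 54 genes was then taken on each array. It was 0.16, 0.22, 0.47 and 0.49 on the DMM arrays at 6 weeks, -0.07, 0.00, 0.36 and 0.41 on the sham arrays at 6 weeks, -0.75, -0.24, -0.10 and 0.20 on the DMM arrays at 1 week, and -0.61, -0.39, -0.19 and 0.02 on the sham arrays at 1 week. The 6 week arrays lay higher, and the weeks overlapped: the lowest at 6 weeks was below the highest at 1 week. After DMM the array medians averaged 0.34 ± 0.17 at 6 weeks and -0.22 ± 0.40 at 1 week (SD, n = 4 each), the narrowest and the widest spread of the 4 groups.

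**Figure D1:**
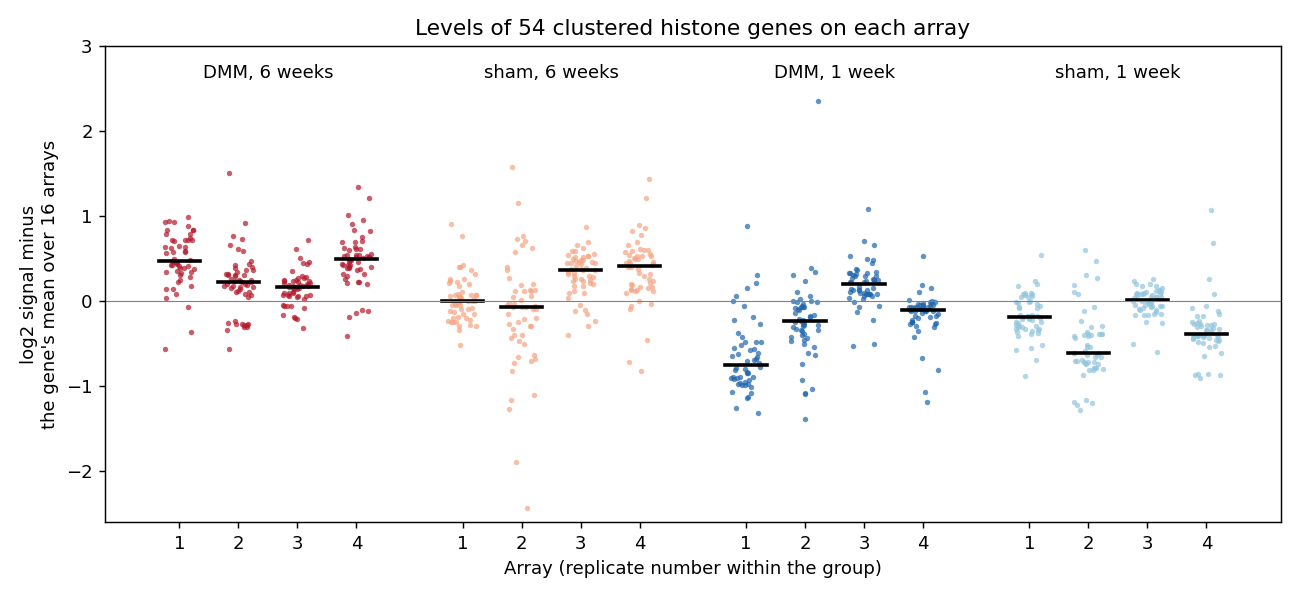
Each point is 1 of 54 histone genes on 1 array, as its log2 signal minus that gene's mean over the 16 arrays (vertical axis); arrays run along the horizontal axis by group and replicate, and black bars are medians over the genes. The DMM arrays at 6 weeks have medians from 0.16 to 0.49, and the lowest median, -0.75, is a DMM array at 1 week.

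As a description over these 16 arrays, which share labelling and scaling, the first principal component of the centred levels held 62.4% of their variation. The correlation of a gene with the median of the other members was above 0.7 for 38 genes and above 0.5 for 43, ran from -0.73 to 0.99, and had a median of 0.87. The replication-coupled H3 gene Hist1h3d had the highest value, 0.99, and the H3 gene Hist2h3c2 the lowest, -0.73. The other member below 0 was the H2B gene Hist1h2bg, at -0.03. These correlations were computed within the set of members and say nothing of shared control.

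The comparison of time after surgery asked how the bone differed at 6 weeks and 1 week, averaged over both surgeries. Levels were higher at 6 weeks for 51 of 54 histone genes, with a median difference of 0.50, while the median of all 28276 genes was 0.04 and 55.6% of them were positive. The linear model fitted with limma to all genes called 2 members, both higher, at a Benjamini-Hochberg adjusted p under 0.05: Hist3h2ba, an H2B gene of the Hist3 cluster, and Hist1h2ac, an H2A gene of the Hist1 cluster. The same rule called 0.637% of all genes as higher. At an unadjusted p under 0.05, 31 members were higher, where 7.59% of all genes were, and 1 was lower, where 8.22% of all genes were. The median was 0.63 within slide 1 and 0.41 within slide 2. With the slide as a block 10 members passed, beside 2.28% of all genes called in either direction: the 2 named, Hist1h1c of type H1, Hist1h2ba, Hist1h2bf, Hist1h2bn and Hist2h2bb of type H2B, Hist1h3f and Hist1h3i of type H3 and Hist1h4m of type H4. The calls by type below are those without the block.

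Hist3h2ba had levels of 1.91, 2.09, 2.27 and 2.69 after DMM at 6 weeks and 1.28, 1.85, 2.13 and 2.34 after sham surgery at 6 weeks. At 1 week it had 0.10, 0.68, 1.12 and 1.97 after DMM and 0.29, 0.58, 0.92 and 1.42 after sham surgery. All 8 arrays at 6 weeks were above the 1 week mean, and the weeks overlapped, since the highest DMM and the highest sham array at 1 week lay above the lowest sham array at 6 weeks. The difference was 1.19 ± 0.26 (SE; limma adjusted p = 0.0472). A second probe of the gene, 160 bases further downstream, gave 1.23.

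Hist1h2ac had levels of -3.53, -3.21, -3.21 and -3.01 after DMM at 6 weeks and -3.72, -3.40, -3.09 and -2.90 after sham surgery at 6 weeks. At 1 week it had -4.74, -4.56, -4.41 and -3.89 after DMM and -4.08, -3.88, -3.56 and -3.49 after sham surgery. The 3 lowest values of all were DMM arrays at 1 week, and only 2 of the 4 arrays of that group were above background for this dim probe. The difference was 0.82 ± 0.16 (SE; limma adjusted p = 0.0392), and 0.45 (adjusted p = 0.0707) after normexp background correction, on the low side of the range over alternatives of 0.45 to 0.90. Its correlation with the other members was 0.51, and its probe carries no stem-loop and, as for 5 other members, no RefSeq accession in the array annotation. Both calls were lost when any 1 of 12 of the 16 arrays was left out. At most 0.0106% of all genes were then called in either direction. The exceptions were sham_6wk replicate 2, without which 20 members passed beside 5.3% of all genes, and DMM_1wk replicate 3 (12 members, 2.46%). The others were sham_1wk replicate 3 (3 members, 1.09%) and DMM_6wk replicate 3 (3 members, 1.73%).

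**Figure D2:**
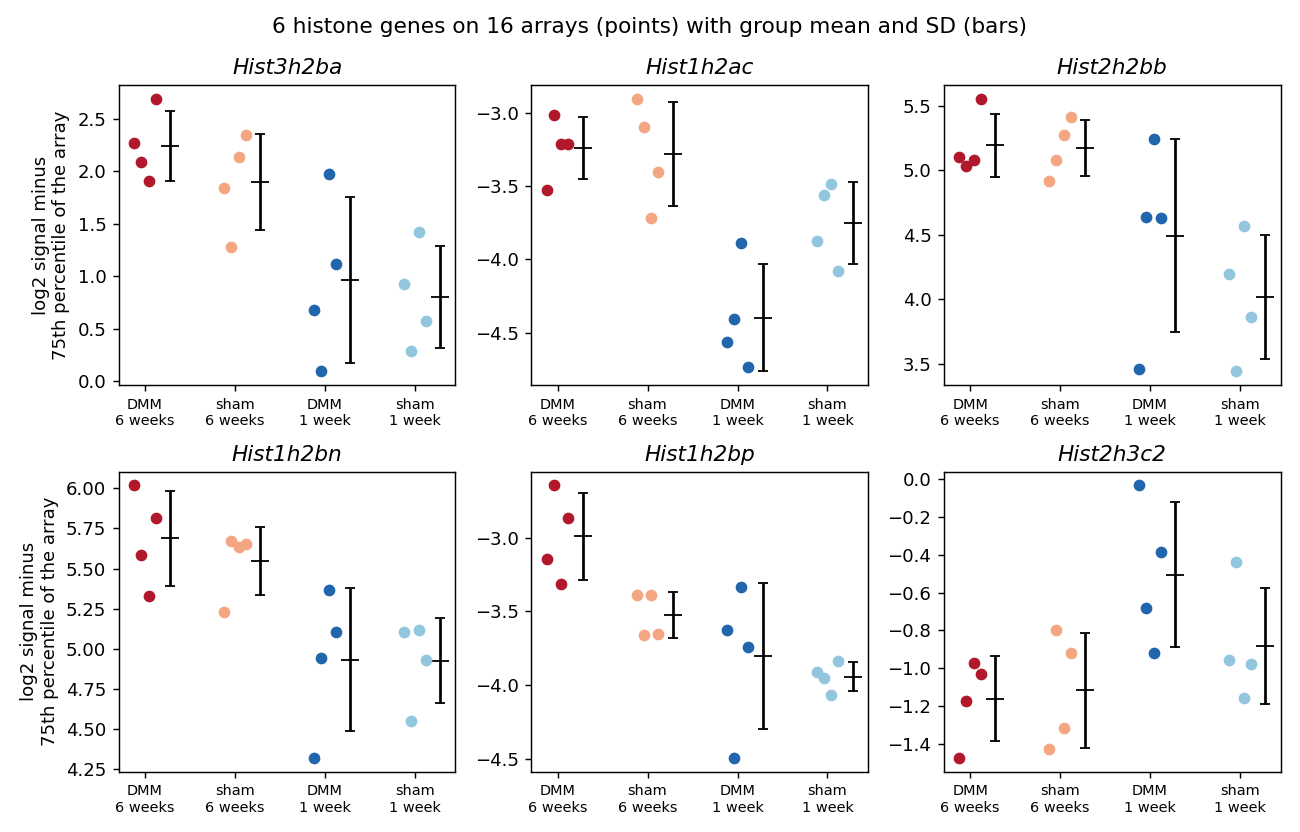
Points are single arrays and bars to their right the group mean with SD (n = 4) of the level, the log2 signal minus the array's 75th percentile, for 6 histone genes in 4 groups; each panel has its own axis, and levels are not compared between genes. Hist3h2ba lies between 1.28 and 2.69 at 6 weeks and between 0.10 and 1.97 at 1 week, whereas Hist2h3c2 is lower at 6 weeks.

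Among the linker histones, which bind DNA between nucleosomes, all 6 genes were higher at 6 weeks, with a median of 0.53 and 0 calls, or 1 with the slide as a block (Hist1h1c). The 3 with the brightest probes gave differences of 0.36 ± 0.17 for Hist1h1e (SE; limma adjusted p = 0.312), 0.50 ± 0.19 for Hist1h1b (0.207) and 0.57 ± 0.17 for Hist1h1d (0.111). Hist1h1d ran from 4.64 to 5.50 with a median of 5.15 on the 8 arrays at 6 weeks, and from 3.88 to 4.90 with a median of 4.68 on the 8 arrays at 1 week. Hist1h1t, the linker histone of the male germ line, had the dim levels of -2.70 to -1.75 at 6 weeks and -3.11 to -2.15 at 1 week, a difference of 0.32 ± 0.19 (SE; adjusted p = 0.450).

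H2A, which pairs with H2B in the nucleosome, gave the lowest median of the 5 types, 0.28, with 16 of 17 genes positive and 1 call. The 9 H2A genes other than Hist1h2ai whose probes share a run of at least 20 bases lay between 0.21 and 0.29. Their probes were also the brightest of all members, with mean levels from 8.89 to 9.52. The part of signal level in the low H2A median was not tested. The 3 with the brightest probes were among them: 0.26 ± 0.14 for Hist1h2ah, 0.24 ± 0.16 for Hist1h2ag and 0.29 ± 0.16 for Hist2h2ac (SE; limma adjusted p = 0.394, 0.527 and 0.393). Hist1h2ah ran from 9.25 to 9.97 at 6 weeks, with a median of 9.67, and from 9.06 to 9.60 at 1 week, with a median of 9.49. Hist1h2aa, a testis H2A gene, gave 0.25, but its probe shares its run with the somatic copies shown above. Hist3h2a, with a probe of its own, gave 0.62 ± 0.18 (SE; adjusted p = 0.103), from levels of 7.69, 7.70, 8.15 and 8.38 after DMM and 7.45, 7.48, 7.98 and 8.00 after sham surgery at 6 weeks, and of 6.73, 7.12, 7.39 and 7.77 after DMM and 6.76, 7.16, 7.37 and 7.60 after sham surgery at 1 week. It was above the 1 week mean on all 8 arrays at 6 weeks.

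H2B genes had a median of 0.56, with 13 of 14 positive, 9 past an unadjusted p of 0.05 and 1 call. Hist1h2bn had levels of 5.33, 5.59, 5.81 and 6.02 after DMM and 5.23, 5.63, 5.66 and 5.67 after sham surgery at 6 weeks. At 1 week they were 4.32, 4.94, 5.10 and 5.37 after DMM and 4.55, 4.93, 5.11 and 5.12 after sham surgery. The sham groups did not overlap, and the difference over both surgeries was 0.69 ± 0.16 (SE; limma adjusted p = 0.0575). Hist2h2bb was similar in size at 0.93 ± 0.23 (SE; adjusted p = 0.0625), with levels from 4.92 to 5.56 at 6 weeks and from 3.44 to 5.25 at 1 week. The brightest H2B probes, of Hist1h2bb, Hist1h2bm and the testis form Hist1h2ba, gave 0.56, 0.56 and 0.63, and none passed the adjusted threshold without the slide as a block. The probe of Hist1h2ba shares a run of 17 bases with that of Hist1h2bb, and which gene its signal comes from was not tested. Hist3h2bb-ps, a pseudogene, gave 0.50 ± 0.20 (SE; adjusted p = 0.226).

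Genes for H3 and H4, which together form the core tetramer of the nucleosome, had medians of 0.58 and 0.57, with 7 of 8 and 9 of 9 positive and 0 calls; with the slide as a block Hist1h3f, Hist1h3i and Hist1h4m passed. The H3 genes with the brightest probes gave 0.50 for Hist1h3d, 0.59 for Hist1h3c and 0.58 for Hist2h3b, with limma adjusted p of 0.131, 0.155 and 0.152. For H4 the values were 0.39 for Hist1h4d, 0.49 for Hist1h4k and 0.44 for Hist2h4, with adjusted p of 0.380, 0.244 and 0.216. Hist4h4, the lone gene of its locus, had levels of 6.23, 6.28, 6.60 and 6.91 after DMM and 5.86, 6.11, 6.54 and 6.61 after sham surgery at 6 weeks, and of 5.09, 5.79, 5.96 and 6.37 after DMM and 5.29, 5.68, 5.78 and 6.11 after sham surgery at 1 week. Both week pairs overlapped, and the difference was 0.64 ± 0.19 (SE; adjusted p = 0.113).

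Hist2h3c2, annotated as an H3 gene of the Hist2 cluster, ran the other way. Its levels were -1.48, -1.17, -1.03 and -0.97 after DMM and -1.43, -1.32, -0.92 and -0.80 after sham surgery at 6 weeks, against -0.92, -0.68, -0.38 and -0.03 after DMM and -1.16, -0.98, -0.95 and -0.44 after sham surgery at 1 week. After DMM every array at 6 weeks was below every array at 1 week. The difference over both surgeries was -0.45 ± 0.16 (SE; limma adjusted p = 0.177), and a second probe further upstream gave -0.09. The 2 other members with a negative difference were Hist1h2ae (-0.13 ± 0.30) and Hist1h2bg (-0.13 ± 0.32). All 3 are among the 6 members whose probe has no RefSeq accession in the array annotation, with Hist1h2ac, Hist1h2al and Hist2h2aa1, and their assignment to these genes was not checked here.

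By cluster the median difference was 0.51 for Hist1, 0.29 for Hist2, 0.62 for Hist3 and 0.64 for the 1 gene of Hist4. The 9 Hist2 genes spread from -0.45 (Hist2h3c2) to 0.93 (Hist2h2bb). Between them lay Hist2h2be (0.21), Hist2h2aa2 (0.28), Hist2h2aa1 (0.28), Hist2h2ac (0.29), Hist2h4 (0.44), Hist2h2ab (0.45) and Hist2h3b (0.58). Types and clusters were not tested against each other, since members of a type share sequence.

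The time difference was present after each surgery, each with its own arrays. After DMM 52 of 54 members were higher at 6 weeks, beside 53.6% of all genes, with a member median of 0.60. After sham surgery 48 were, beside 55.0% of all genes, with a member median of 0.41. After DMM 0 members passed the adjusted threshold, as did 0% of all genes, and 28 were higher at an unadjusted p under 0.05, beside 4.91% of all genes. After sham surgery 0 passed, beside 0% of all genes, and 11 were higher at an unadjusted p under 0.05, beside 3.41% of all genes. Groups did not overlap for 5 members that were higher after DMM (2.79% of all genes), for 1 that was lower (2.46%) and for 5 that were higher after sham surgery (2.15%). Hist1h2bp, an H2B gene, was the 1 gene on both lists of higher genes. Within slides the median after DMM was 0.92 and 0.29, and after sham surgery 0.32 and 0.55.

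The size of the time difference varied with the class of the probe. This grouping was made from the probe sequences after the values were known and is a description with no test. The 10 probes that reach the stem-loop gave a median of 0.76 and a range of 0.51 to 1.19. The 28 other probes with at least 50% G and C gave a median of 0.50 and a range of 0.21 to 0.69. The 16 other probes with less gave a median of 0.27 and a range of -0.45 to 0.82. Their median correlations with the other members were 0.94, 0.91 and 0.26. The last class also holds all 6 probes with no RefSeq accession and the 4 probes not above background on every array. Mean levels ran from -5.59 to 6.45 in it, and the lowest in the other classes was 0.86. Probe class, signal level and annotation therefore cannot be told apart here. In 10 genes a second probe also passed the filter, and 9 of these were higher at 6 weeks. For Hist1h1c the stem-loop probe gave 0.95 and a probe 688 bases downstream 0.32; for Hist2h2bb the stem-loop probe gave 0.93 and a dim probe 8698 bases downstream, which carries a polyadenylation hexamer, 0.36; that this distant probe reads the same transcript was not checked here. For Hist3h2ba the second probe also carries a hexamer, and both probes gave nearly the same value. Where the brightest probe does not reach the stem-loop, the dimmer second probe was higher for Hist1h2bb (0.63 against 0.56) and Hist1h4d (0.56 against 0.39). It was also higher for Hist1h4k (0.61 against 0.49) and Hist2h2be (0.24 against 0.21). It was lower for Hist2h2ac (0.18 against 0.29) and Hist3h2a (0.45 against 0.62), and for Hist2h3c2 it gave -0.09 against -0.45.

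**Figure D3:**
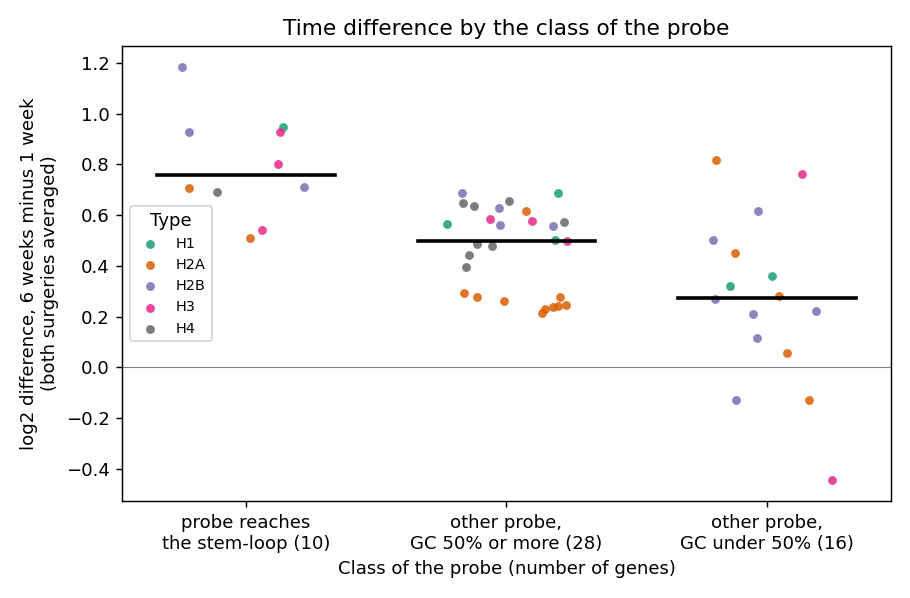
Each point is 1 of 54 histone genes, coloured by type; the vertical axis is the log2 difference of 6 weeks minus 1 week averaged over both surgeries, the horizontal axis the class of the probe, and black bars are medians. Probes that reach the stem-loop have a median of 0.76, other probes rich in G and C 0.50 and the rest 0.27, and the dense H2A group near 0.2 to 0.3 in the middle class are probes that share sequence.

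DMM and sham joints were compared at each time to ask whether destabilization changed the histone genes. At 6 weeks 48 of 54 members were higher after DMM, with a median difference of 0.17. The median of all genes was -0.02, and 46.7% of them were higher. By type the medians ran from 0.09 for H1 to 0.23 for H4, with 0.16 for H2A, 0.18 for H2B and 0.22 for H3. None of the 54 passed the adjusted threshold (limma, 0 calls), and 0% of all genes did. At an unadjusted p under 0.05, 2 members were past it, beside 0.778% of all genes. The shift did not hold within slides, where the median was 0.38 on slide 1 and -0.06 on slide 2, and without sham_6wk replicate 2 it was 0.09.

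Hist1h2bp had levels of -3.31, -3.14, -2.86 and -2.64 after DMM, against -3.66, -3.66, -3.39 and -3.39 after sham surgery, at 6 weeks. The groups did not overlap, which held for 0.134% of all genes in this direction, and the difference was 0.54 ± 0.22 (SE; limma adjusted p = 0.999), with 0.63 and 0.44 within the slides. The difference of Hist1h2bp ranged from 0.25 to 0.64 over the alternatives run. Hist2h2aa1, an H2A gene, had -6.00, -4.87, -4.59 and -4.08 after DMM, against -6.86, -6.30, -5.71 and -5.16 after sham surgery. Its probe was above background on 3 of the DMM and 1 of the sham arrays, and its difference of 1.12 ± 0.50 (SE; adjusted p = 0.999) rests on that dim signal. Over the alternatives run the difference of Hist2h2aa1 ranged from 0.20 to 1.49. The next smallest p among members higher after DMM was that of Hist1h2ab, at 0.32 ± 0.24. Lower values after DMM were small against their errors: -0.16 ± 0.26 for Hist1h1t, -0.19 ± 0.34 for Hist1h4h and -0.08 ± 0.39 for Hist1h2bq. Hist1h4h had 0.79 to 1.15 on the DMM arrays, and 0.40, 0.97, 0.98 and 2.43 on the sham arrays. The highest of these, on sham_6wk replicate 2, lay far above the rest. With 1 array left out the difference of Hist1h4h ranged from -0.45 to 0.22.

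At 1 week the median difference between DMM and sham was 0.06, with 39 of 54 positive, beside 50.7% of all genes. Again 0 passed (limma), beside 0% of all genes, and at an unadjusted p under 0.05 there was 1, Hist1h2ac, beside 0.958% of all genes. Hist1h2ac was lower after DMM by the levels given above, a difference of -0.65 ± 0.23 (SE; limma adjusted p = 1.00), with -0.77 and -0.53 within the slides, and 0 of 4 DMM arrays were above the sham mean. Over the alternatives run the difference of Hist1h2ac ranged from -0.82 to -0.20. The other lower values were -0.68 ± 0.50 for Hist2h2aa1 and -0.50 ± 0.39 for Hist1h2bq. In the other direction stood Hist2h3c2 at 0.38 ± 0.23, Hist2h2bb at 0.48 ± 0.32 and Hist1h2bg at 0.67 ± 0.45. The last rests on 1 DMM array at -0.68, where the other 3 had -3.45, -3.29 and -3.08. The median was -0.13 within slide 1 and 0.21 within slide 2.

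**Figure D4:**
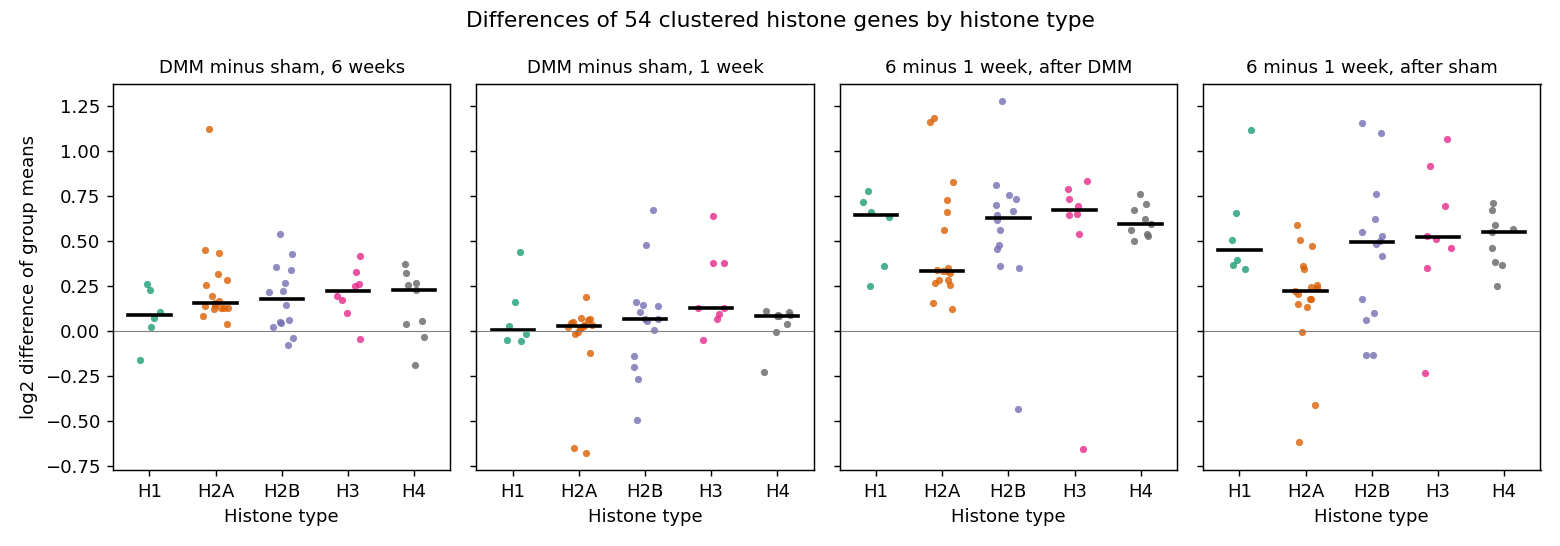
Each point is 1 histone gene, grouped by histone type along the horizontal axis, and black bars are type medians; the vertical axis is the log2 difference of group means (n = 4 arrays a group) for the comparison named above each panel. Differences between weeks have type medians from 0.22 to 0.67, and those between DMM and sham from 0.01 to 0.23.

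Averaged over both times the median difference of DMM minus sham was 0.13, with 0.17 and 0.08 within the slides. Of the 54 members 48 were positive, beside 48.3% of all genes. There were 0 calls (limma), beside 0% of all genes, and at an unadjusted p under 0.05 there was 1 member, Hist1h2bp (0.34 ± 0.16), beside 0.941% of all genes. The next smallest p belonged to Hist1h2ai (0.31 ± 0.27) and Hist1h2bg (0.36 ± 0.32) among higher members, and to Hist1h2ac (-0.31 ± 0.16), Hist1h2bq (-0.29 ± 0.27) and Hist1h4h (-0.21 ± 0.24) among lower ones. The difference of the DMM effects between the weeks had a median of 0.13, with 0.53 within slide 1 and -0.30 within slide 2. It gave 0 calls, beside 0% of all genes. At an unadjusted p under 0.05 stood 2 members, Hist2h2aa1 (1.80 ± 0.70) and Hist1h2ac (0.69 ± 0.32), beside 0.69% of all genes, both with an adjusted p of 1.00. The comparisons share arrays: the DMM arrays at 6 weeks enter both the comparison with sham and that with 1 week.

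Other genes of the pathway were counted in the same fit, in lists drawn up with earlier results of these data known. Of 20 measured genes for histone mRNA expression and processing, 12 were higher at 6 weeks than at 1 week, with a median of 0.05 and 0 calls. Slbp, which binds the stem-loop, gave 0.29 ± 0.16 (limma adjusted p = 0.417), and Npat, the S-phase activator of the clusters, 0.20 ± 0.14 (0.574). Lsm11, a U7 snRNP subunit that takes part in histone 3′ end cutting, gave -0.27 ± 0.12 (0.303). Of 15 histone variants outside the clusters 10 were higher, with a median of 0.16 and 0 calls. The H3.3 gene H3f3b gave 0.20 ± 0.19, H3f3a 0.34 ± 0.21, H2afz 0.17 ± 0.24, H2afx 0.16 ± 0.12, the germ line linker H1fnt 0.12 ± 0.24 and the linker variant H1f0 -0.27 ± 0.18. Of 18 chaperones and import factors 14 were higher, with a median of 0.19; Tonsl, a reader of new histones, gave 0.23 ± 0.12.

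Genes of DNA copying and cell division lay in the same direction as the histones. All 38 DNA replication genes measured were higher at 6 weeks, with a median of 0.37, 12 at an unadjusted p under 0.05 and 1 call, the origin recognition gene Orc1 (0.89, limma adjusted p = 0.0492), and so were all 20 mitosis genes, with a median of 0.31 and 0 calls. Pcna, the sliding clamp of DNA polymerase, gave 0.57 ± 0.34 and Mki67, a proliferation marker, 0.43 ± 0.23. The array medians of the replication list were 0.01, 0.25, 0.49 and 0.54 after DMM at 6 weeks, -0.81, 0.28, 0.36 and 0.38 after sham surgery at 6 weeks, -0.43, -0.42, -0.23 and 0.25 after DMM at 1 week and -0.35, -0.31, 0.02 and 0.06 after sham surgery at 1 week. The value of -0.81 belongs to sham_6wk replicate 2, on which the histone median was -0.07. Between DMM and sham at 6 weeks 33 of the 38 replication genes and all 20 mitosis genes were higher, beside 46.7% of all genes. Their medians were 0.24 and 0.31, with 0 calls. The mitosis array median was also low on sham_6wk replicate 2, at -0.90. It was 0.23, 0.32 and 0.42 on the other sham arrays and -0.03, 0.30, 0.51 and 0.51 on the DMM arrays. How far both differences rest on that 1 sham array was not tested. For processing genes, variants and chaperones the medians were 0.07, 0.07 and 0.09, also with 0 calls.

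Markers of other cells moved with the weeks beside the histone genes. Of 7 erythroid precursor markers measured all were higher at 6 weeks, with a median of 1.17, and their array medians ran from -1.33 to 1.24 at 6 weeks and from -1.88 to 0.36 at 1 week. All 8 B cell precursor markers (median 0.62), all 4 megakaryocyte markers (0.90), 5 of 6 chondrocyte markers (1.24) and all 5 skeletal muscle markers (0.63) were higher too. Lower at 6 weeks were all 5 osteoclast markers (median -0.80), 4 of 6 osteoblast and bone matrix markers (-0.48), 3 of 4 osteocyte markers (-0.13) and 7 of 8 neutrophil precursor markers (-0.15). Past the adjusted threshold were Alas2 of the erythroid list and Chad of the chondrocyte list, both higher, and Mmp9 of the osteoclast list, lower. The array medians of the osteoclast list ran from -1.28 to 0.10 at 6 weeks and from -0.33 to 1.25 at 1 week. All osteoblast, osteocyte, osteoclast and chondrocyte markers passed the detection filter, and so did those of marrow and of muscle except 1 erythroid gene. The filter passed 28276 of 36892 gene names, so passing it says little about the tissue. The part of these cell types in the histone result was not tested.

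**Figure D5:**
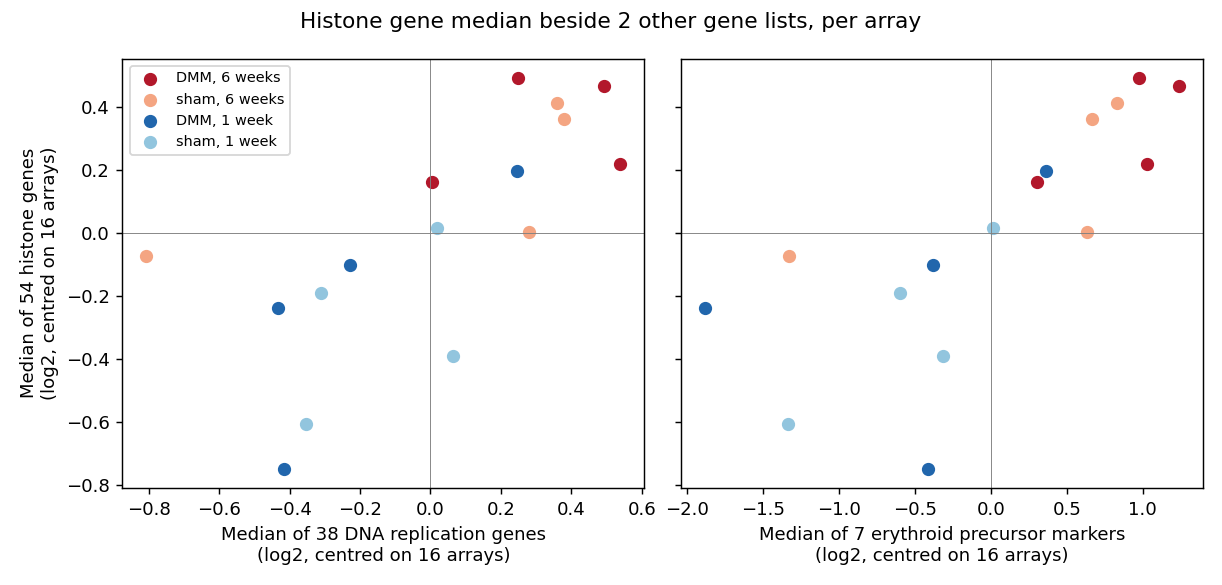
Each point is 1 array, coloured by group; the vertical axis is the median of 54 histone genes and the horizontal axes are the medians of 38 DNA replication genes and of 7 erythroid precursor markers, all in log2 centred on the 16 arrays. Arrays at 6 weeks lie mostly to the upper right, and 1 sham array at 6 weeks lies far left at -0.81 in the replication panel. In the erythroid panel that array lies at -1.33, left of the other 6 week arrays, and a DMM array at 1 week lies further left at -1.88.

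The promoters are shown as a description, and whether their letters bear on how the members varied was not tested. RefSeq promoters (GRCm38.p6) were matched for 47 of the 54 genes, and the 250 bases before each start were searched for 4 motifs and set beside 27025 promoters of the same length. The letters CCAAT, on either strand, were in 85.1% of histone promoters and 34.5% of all. TATAAA, on the strand of the gene only, was in 42.6% and 8.12%. The octamer ATTTGCAT, on either strand, was in 25.5% and 1.61%; it was found in 7 of 16 H2A and 5 of 11 H2B promoters. AAACACA, an H1 promoter element, on either strand, was in 19.1% and 6.22%, and in 5 of 6 H1 promoters. The CCAAT letters were in all 6 H1, all 16 H2A, all 11 H2B, 5 of 6 H3 and 2 of 8 H4 promoters. Neighbouring H2A and H2B genes can share 1 upstream region read in opposite directions, so these promoters are not independent. The 2 called genes and Hist2h2bb, the gene with the next largest difference in the Hist2 to Hist4 clusters, are printed with every match in capitals.
Hist3h2ba, chr11:58948661-58948910 plus strand: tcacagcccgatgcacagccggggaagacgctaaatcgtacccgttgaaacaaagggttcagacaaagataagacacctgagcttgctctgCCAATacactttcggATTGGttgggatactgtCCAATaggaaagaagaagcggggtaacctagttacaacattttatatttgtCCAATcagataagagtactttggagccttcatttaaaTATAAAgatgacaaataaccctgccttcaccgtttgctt
Hist1h2ac, chr13:23683960-23684209 minus strand: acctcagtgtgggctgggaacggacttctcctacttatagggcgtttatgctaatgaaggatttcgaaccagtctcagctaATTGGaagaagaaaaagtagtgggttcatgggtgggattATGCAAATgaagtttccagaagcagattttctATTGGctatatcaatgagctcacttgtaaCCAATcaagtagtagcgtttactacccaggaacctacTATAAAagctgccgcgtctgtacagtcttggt
Hist2h2bb, chr3:96269450-96269699 plus strand: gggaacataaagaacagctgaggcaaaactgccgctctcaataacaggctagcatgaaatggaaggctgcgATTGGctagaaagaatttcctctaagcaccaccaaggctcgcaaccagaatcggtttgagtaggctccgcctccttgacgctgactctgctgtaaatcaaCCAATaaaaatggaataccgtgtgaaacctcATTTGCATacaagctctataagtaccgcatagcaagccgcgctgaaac
Matches are letters in a window, not sites shown to bind a factor.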

How the data were processed

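Scanner files from Agilent Feature Extraction 10.7.3.1 hold, per the file headers, a background-corrected intensity for each spot and probe positions on mm9. The authors also deposited a log2 value table, used only as an alternative; the submitters' processing notes name limma 3.20.9, and how that table was normalized is not given in the sources used here. Spots flagged as outliers were set aside, spots of a probe averaged, 342 probes with no spot left on an array dropped, and each array's log2 intensity lowered by its 75th percentile. The brightest probe above background on at least 4 arrays stood for a gene. A model with 1 mean per group over 16 arrays was fitted in limma 3.58.1 (R 4.3.3), with Benjamini-Hochberg adjustment over 28276 genes and a threshold of 0.05; it was tested on simulated data. Group means were compared as DMM with sham at 1 and 6 weeks, their average and difference, and 6 weeks with 1 week after each surgery and averaged. Arrays are separate mice by the labels, and replicate numbers follow record order. The members, gene lists and comparisons were chosen with earlier results of these data known. Named genes were members past the threshold, the 3 brightest of each type, the 3 with the smallest p in each direction of 4 comparisons, all of Hist2 to Hist4, germ line forms, and set pathway genes; Hist1h1c, Orc1 and other genes shown for their probes or calls were chosen after their values were seen. Alternatives are in the closing section.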

Additional observations from a re-analysis of the deposited data

Results flagged for a closer look

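Groups of 4 arrays were searched for a single value far from the other 3 (Dixon's gap test at 95%) in 180 combinations of group and gene or gene set, and 4 stood out; chance alone flags about 1 in 20. Hist1h2bg was at -0.68 on DMM_1wk replicate 2, against -3.45 to -3.08 on the other DMM arrays at 1 week. Hist2h2bb was at 5.56 on DMM_6wk replicate 4, against 5.03 to 5.10 on the other 3. Hist1h2bn was at 5.23 on sham_6wk replicate 1, against 5.63 to 5.67. Hist1h2ae was at -3.34 on sham_1wk replicate 4, against -4.14 to -4.02.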

How the results depend on the processing

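The median time difference over the histone genes, averaged over surgeries, stayed positive under every alternative run, between 0.38 (quantile normalization) and 0.63, and between 0.42 and 0.58 with 1 array left out. The count of members past the threshold was 2, beside 0.87% of all genes in either direction. It was 4 with normexp background correction (1.5% of all genes) and 4 with probes detected on all 16 arrays (2.07%). With array median scaling and without a detection filter it was 0, and so was the count over all genes. It was 1 with the mean over a gene's probes (1.22%) and 10 with the slide as a block (2.28%). Without both sham_6wk replicate 2 and DMM_1wk replicate 1, chosen after seeing the data, it was 16, with no share of all genes computed. With 1 array left out it was 0 to 20, beside 0% to 5.3% of all genes. The genes changed as well as the count: the authors' deposited table also gave 2 members (1.11% of all genes), and Hist1h2ac was not among them (limma adjusted p = 0.0539). The cause was not tested. Hist1h2ae turned to 0.10 with normexp. With 1 array left out 4 small values changed sign: for time, Hist1h2ae ranged from -0.25 to 0.14 and Hist1h2bg from -0.27 to 0.20; for DMM minus sham at 6 weeks, Hist1h4h ranged from -0.45 to 0.22 and Hist1h2bq from -0.37 to 0.26. Within slides the median after DMM was 0.92 and 0.29, and that of the difference of DMM effects 0.53 and -0.30. With 1 array left out, members called after DMM ranged from 0 to 1. The 1 week median of DMM minus sham ranged from -0.08 to 0.20, the 6 week median from 0.09 to 0.28, and that of their difference from -0.04 to 0.28, with 0 calls in each. No paired analysis was possible because nothing in the labels ties 1 mouse to another. Dim probes limit Hist2h2aa1, Hist1h2al, Hist1h2ae and Hist1h2ac.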

Other observations

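Hist2h3c1, an H3 gene of the Hist2 cluster, entered no comparison because its only probe was marked as an outlier on DMM_6wk replicate 2, where it read -0.221. On the other 3 DMM arrays at 6 weeks its levels were -2.384, -1.817 and -1.702, and on the sham arrays at 6 weeks -2.199, -2.173, -1.958 and -1.732. At 1 week they were -2.394, -2.014, -1.498 and -0.964 after DMM and -2.408, -1.762, -1.704 and -1.541 after sham surgery. Leaving the marked value aside, the 4 groups overlap.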
